A study of Mus musculus with 57 samples.

Results

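Transcripts of 10 heart muscle genes were followed through 57 RNA-seq libraries of mouse embryos. The genes were *Myl7*, *Myl4*, *Nppa*, *Myh6*, *Tnni3*, *Tnnt2*, *Actc1*, *Nkx2-5*, *Sln* and *Mybpc3*. They were chosen by name for their high counts in trachea, and all 10 were found among the 56860 genes of the tables. Their high level in trachea is therefore the reason for the choice and is given as a description, with no test. The libraries were made from polyA RNA of wt embryos and of *Hoxa5*-/- embryos, all in the 129/Sv background. *Hoxa5*-/- embryos carry a null allele in every cell, made by inserting a neomycin cassette into the homeobox in exon 2, so that exon reads of *Hoxa5* could still be counted. Each genotype had 4 libraries of trachea at E15.5, lung at E12.5, lung at E15.5, diaphragm at E15.5 and somites at E12.5. For somites at E10.5 there were 4 libraries of wt and 3 of *Hoxa5*-/-, and interscapular brown fat (iBAT) at E18.5 had 5 of each. Somite samples spanned the C3 to T2 levels, without neural tube, limbs or chest organs. The labels do not say how trachea and lung were separated from heart and great vessels.

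Heart muscle contracts when myosin heads pull on actin filaments, and a troponin complex on the actin filament makes this depend on calcium. Atrial muscle uses its own light chains and secretes a natriuretic peptide, whereas ventricular muscle uses other light chains. In mice, a sleeve of heart muscle also covers the pulmonary veins and follows them into the lung. Several of these genes are not confined to the heart, since embryonic skeletal muscle uses *Actc1*, *Tnnt2*, *Myl4* and *Sln* for a time. The 10 genes are therefore described as 6 heart-restricted members (*Myl7*, *Nppa*, *Myh6*, *Tnni3*, *Nkx2-5*, *Mybpc3*) and 4 that skeletal muscle shares. The names follow textbook use, and *Myh6* did not keep to them here, since it made up 51.5 to 74.6% of the summed TPM of the 6 in diaphragm.

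The 10 genes lie at 10 places on 8 chromosomes of GRCm39. *Myl7* (ENSMUSG00000020469) spans bases 5846637 to 5848782 of the minus strand of chromosome 11. *Myh6* (ENSMUSG00000040752) spans 55179378 to 55204384 of the minus strand of chromosome 14, next to its ventricular counterpart *Myh7*. Of the 100-base stretches of the *Myh6* transcript, 687 of 6145 (11.2%) also occur in *Myh7*, so reads within them cannot be placed by sequence alone. The study went on with reads that mapped uniquely, so such reads may be missing from both genes. None of the 3546 stretches of *Actc1* occurs in the other muscle actins *Acta1*, *Acta2* and *Actg2*. *Tnni3* shares part of its span with *Dnaaf3* on the same strand, which makes its low values uncertain. Antisense genes overlap *Nppa*, *Myh6*, *Actc1* and *Myl4*, and the strand setting of the counting is not given in the sources used here.

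Sequence before the start of transcription was read for all 10 genes and searched on both strands for 5 short motifs. A CArG box, the site of serum response factor, stood before *Myl7* and *Actc1* and in 287 of 21825 mouse promoters of the same length (1.32%). A MEF2 box stood before *Mybpc3* and in 0.490% of promoters. The MCAT motif CATTCC was found before 4 members and in 11.2% of promoters, the letters AAGTG before 4 members and in 39.3%, and the letters TATAAA before 3 members and in 11.7%. The 250 bases before *Myl7*, the member with the highest wt mean in trachea, and before *Mybpc3* are shown because they hold the 2 rarest kinds of match, marked in capitals. They lie at chr11:5848783-5849032 (minus strand) and chr2:90948239-90948488 (plus strand) of GRCm39.
Myl7: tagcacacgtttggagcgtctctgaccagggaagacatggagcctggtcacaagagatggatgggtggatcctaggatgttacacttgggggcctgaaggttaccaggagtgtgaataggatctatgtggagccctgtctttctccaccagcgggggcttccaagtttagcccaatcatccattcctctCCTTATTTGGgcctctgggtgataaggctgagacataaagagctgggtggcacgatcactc
Mybpc3: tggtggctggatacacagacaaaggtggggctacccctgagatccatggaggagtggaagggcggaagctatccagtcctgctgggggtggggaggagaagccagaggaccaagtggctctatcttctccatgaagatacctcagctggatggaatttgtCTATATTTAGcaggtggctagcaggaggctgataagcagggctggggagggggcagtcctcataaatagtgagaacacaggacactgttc
The box of *Myl7* lay 61 to 52 bases before the start, and that of *Actc1*, CCAAATAAGG, 35 to 26 bases before it. These matches are descriptions of the sequence only.

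The libraries held between 18369905 and 72991481 counted reads. *Hoxa5* was lower in every *Hoxa5*-/- library than in every wt library of its context, at 20.9 to 37.7 against 76.3 to 108.9 TPM in trachea, and passed the test in all 7 contexts. Trachea, lung and diaphragm were sequenced at one centre and somites and iBAT at another, so levels in those sets of tissues cannot be told apart from the centre. Trachea libraries held the airway and cartilage genes of their label, with *Nkx2-1* at 88.8 to 146 TPM and *Col2a1* at 468 to 2503 TPM. One trachea library, *Hoxa5*-/- replicate 3, stood apart by skeletal muscle transcripts. It held *Myog*, a regulator of muscle differentiation, at 161 TPM against 2.03 to 8.80 in the other 7 libraries, and *Acta1*, skeletal actin, at 1805 TPM against 16.5 to 357.

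*Myl7*, the atrial regulatory light chain, stood at 2883, 4001, 2377 and 4009 TPM in wt trachea. In *Hoxa5*-/- trachea it stood at 1729, 2310, 2018 and 1210 TPM. TPM is the authors' unit of reads per length, scaled to the same total in each library, and can be compared between genes. *Actc1*, cardiac actin, reached 2500, 3976, 2026 and 2780 TPM in wt and 1575, 2202, 3220 and 946 TPM in mutants. These 2 transcripts were the most abundant of the 10 in every trachea library. *Myh6*, the alpha heavy chain of myosin, followed with 772, 1096, 533 and 800 TPM in wt and 453, 502, 440 and 232 TPM in mutants. The troponins were lower, with *Tnni3* (troponin I) at 234, 315, 203 and 253 TPM and *Tnnt2* (troponin T) at 156, 313, 142 and 191 TPM in wt. In mutant trachea *Tnni3* was at 124, 189, 163 and 83.6 TPM and *Tnnt2* at 95.7, 131, 152 and 75.0 TPM. *Myl4*, the atrial essential light chain, ranged from 251 to 559 TPM in wt and from 121 to 287 TPM in mutants, and *Mybpc3*, which tethers myosin in the thick filament, from 126 to 251 and from 41.3 to 126 TPM. *Nkx2-5*, the homeobox factor of heart progenitors, was the only transcription factor of the set and had 23.2 to 48.5 TPM in wt and 7.92 to 32.8 TPM in mutants. Together, the 10 genes made up 0.572 to 1.08% of all TPM in wt and 0.275 to 0.655% in mutant trachea.

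*Nppa* and *Sln* departed from this regular picture. *Nppa*, which encodes atrial natriuretic peptide, was at 9.91, 58.9, 1.10 and 12.02 TPM in wt and at 6.58, 5.005, 5.87 and 0.166 TPM in mutants. Its highest library exceeded its lowest 356-fold, and the lowest held 1 read. *Sln*, sarcolipin, a small inhibitor of the calcium pump made in atria and in skeletal muscle, was at 83.1, 142, 36.3 and 61.7 TPM in wt and at 39.1, 26.2, 143 and 30.01 TPM in mutants. The highest *Sln* value belonged to the mutant library that held the skeletal muscle transcripts.

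**Figure D1:**
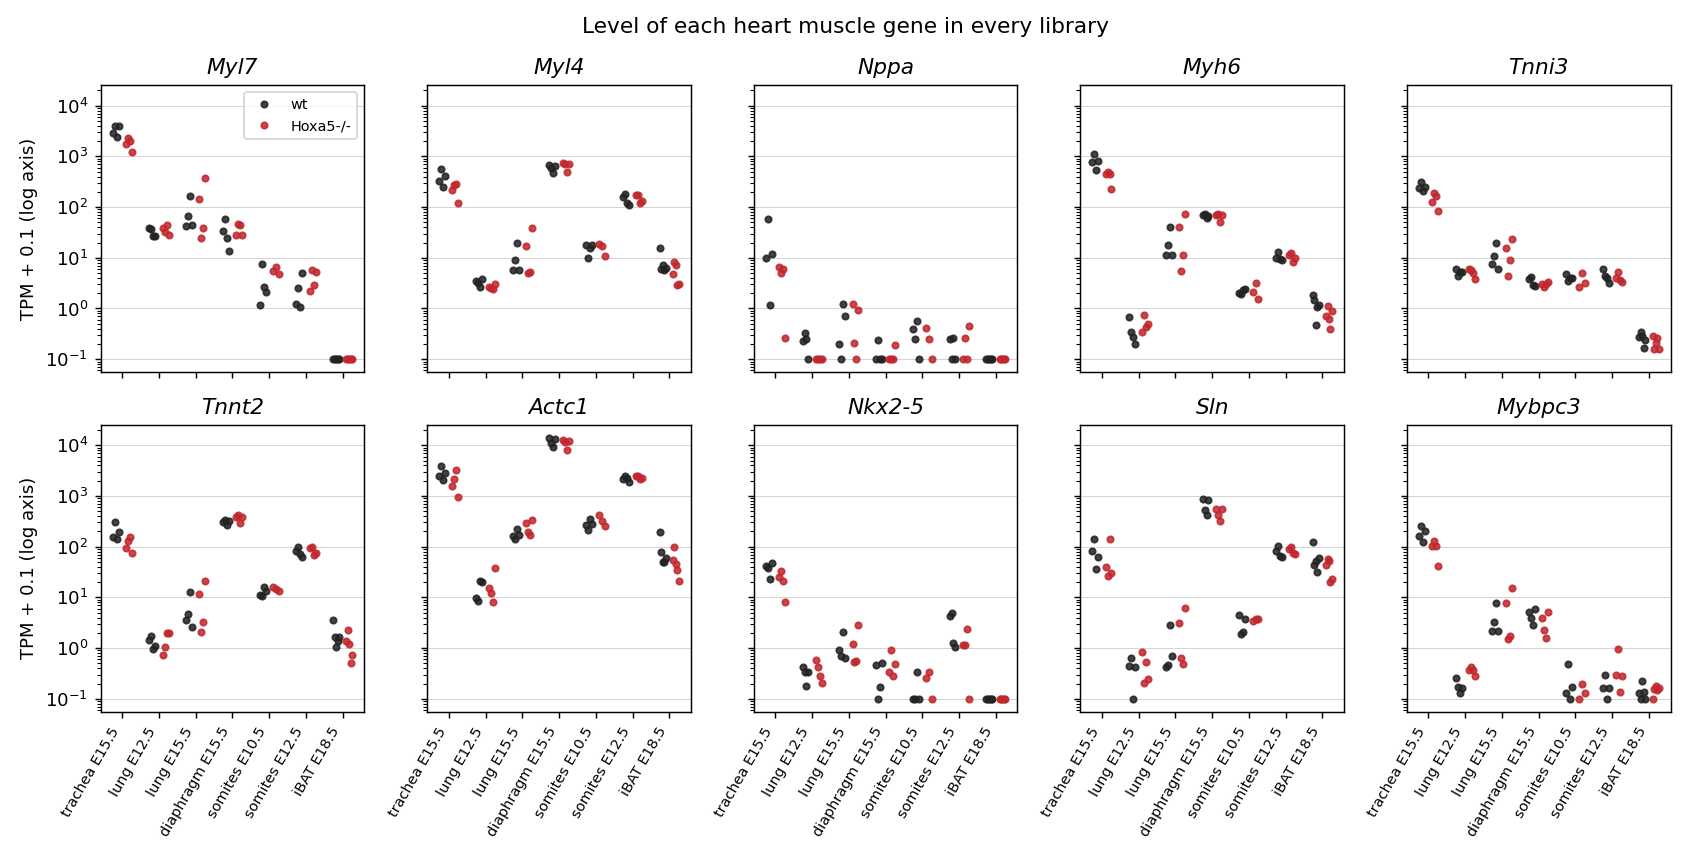
Level of each of the 10 heart muscle genes in all 57 libraries, as TPM + 0.1 on a log axis, with 1 point per library, wt in black and *Hoxa5*-/- in red, for the 7 contexts. *Myl7*, *Nppa*, *Myh6*, *Tnni3*, *Nkx2-5* and *Mybpc3* have their highest wt mean in trachea, while *Myl4*, *Tnnt2*, *Actc1* and *Sln* have it in diaphragm.

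Contexts were ordered by wt mean. Trachea was highest for the 6 heart-restricted members and diaphragm for the 4 that skeletal muscle shares. The members were chosen for high counts in trachea, so this order is a description and does not test the grouping. Wt libraries of the highest and the next context overlapped for *Nppa* (trachea and lung at E15.5) and for *Myl4* and *Tnnt2* (diaphragm and trachea). For *Myl7*, wt trachea (3317.5 ± 820 TPM, SD, n = 4) was followed by lung at E15.5 (78.6 ± 56.7), diaphragm (32.3 ± 18.6) and lung at E12.5 (32.1 ± 5.81), and these last 3 neighbours overlapped. Somites had 3.26 ± 2.86 TPM of *Myl7* at E10.5 and 2.35 ± 1.80 at E12.5, and all 10 libraries of iBAT had no read of it. *Nppa* and *Nkx2-5* were also listed at 0 in all 10 libraries of iBAT. *Actc1* followed the other order, with 11893 ± 2322 TPM in wt diaphragm, 2821 ± 831 in trachea and 2197 ± 268 in somites at E12.5, the last 2 overlapping. *Sln* stood at 664 ± 227 TPM in wt diaphragm, against 80.9 ± 45.2 in trachea. *Myh6* was second highest in diaphragm (67.9 ± 5.67 TPM), where its ventricular counterpart *Myh7* reached 109.1 to 162 TPM in wt.

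The ventricular counterparts of these genes were scarce in trachea. *Myl2*, the ventricular regulatory light chain, made up 0.103 to 0.358% of the summed TPM of *Myl2* and *Myl7* in the 8 trachea libraries. *Myh7* made up 1.52 to 4.51% of the summed TPM of *Myh6* and *Myh7*. The list of 7 ventricular genes (*Myl2*, *Myl3*, *Myh7*, *Irx4*, *Hey2*, *Lrrc10*, *Nppb*) summed to 22.6 to 63.0 TPM there, and *Irx4*, a factor of ventricle identity, had no read in 4 of the 8 libraries. Of the 10 listed atrial or pulmonary vein genes, *Stard10*, *Tbx5* and *Gja5* had the highest wt means in trachea (113, 80.3 and 46.7 TPM). *Tbx5* was higher in wt lung (169 TPM at E12.5 and 126 TPM at E15.5). *Shox2*, a factor of the sinus node and pulmonary vein muscle, ran from 16.4 to 59.2 TPM, and from 34.4 to 56.6 TPM in somites at E12.5. *Bmp10*, a peptide of atrial muscle, did not exceed 0.650 TPM. *Irx4* and *Bmp10* were named after their values had been seen. Of the other heart muscle genes, all 16 had reads in trachea, led by *Tnnc1* (cardiac troponin C, 608 TPM in wt), *Atp2a2* (the calcium pump, 484 TPM) and *Csrp3* (188 TPM). This list did not keep to its name, since it summed to 3751 to 5333 TPM in wt diaphragm against 1347 to 2664 TPM in wt trachea. *Tnnc1* had 1248 TPM in wt diaphragm, and *Atp2a2* had 233 and 186 TPM in wt lung at E12.5 and E15.5. Endocardial and endothelial genes summed to 302 to 336 TPM and smooth muscle genes, led by *Acta2*, to 1292 to 2257 TPM.

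The question for trachea was whether loss of *Hoxa5* changed these genes. No member passed the quasi-likelihood test of edgeR, for which a call needed 1.5-fold and an adjusted p below 0.05, and 3 of 19220 genes did (0.0156%). All 10 members had a log2 fold change below 0, from -2.23 for *Nppa* to -0.44 for *Sln*, with a median of -0.84 against a median of 0.0020 over all genes tested. The values of the 10 genes are not independent, since they rose and fell together between libraries. *Myl7* had a log2 fold change of -0.88 (SE 0.23, adjusted p = 0.653), or 1.84-fold less in mutants. *Myh6* had -0.99 (SE 0.27, adjusted p = 0.662), *Tnni3* -0.85 (SE 0.24, adjusted p = 0.665) and *Mybpc3* -1.001 (SE 0.33, adjusted p = 0.682). *Tnnt2* had -0.83 (SE 0.30), *Nkx2-5* -0.82 (SE 0.39), *Myl4* -0.81 (SE 0.31) and *Actc1* -0.52 (SE 0.36). Unadjusted p-values were under 0.05 for 6 members and for 1288 genes in all. DESeq2 on the same counts called *Myl7* (adjusted p = 0.0353) and *Myh6* (adjusted p = 0.0438), so the call depended on the tool. The study's own test was DESeq2 with these limits of fold change and adjusted p. How many of all genes DESeq2 called in trachea is not given here, so these 2 calls have no share to be set against. For *Myl7*, *Myh6* and *Tnni3* every wt library was above every mutant library, as was the case for 319 of 19220 genes (1.66%), and the other 7 members overlapped.

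Trachea libraries of 1 genotype differed among themselves by folds of the same size. Summed over the 6 heart-restricted members, the highest wt library exceeded the lowest 1.76-fold, and the highest mutant library the lowest 2.01-fold. Replicate 2 of wt was the highest of all 8 libraries for 7 members, and replicate 4 of the mutants the lowest for 9. Leaving out any one library kept all 10 members below 0, with medians between -1.02 and -0.68, and called none. Without wt replicate 2, the value of *Nppa* was -0.77 and that of *Sln* -0.00084.

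**Figure D2:**
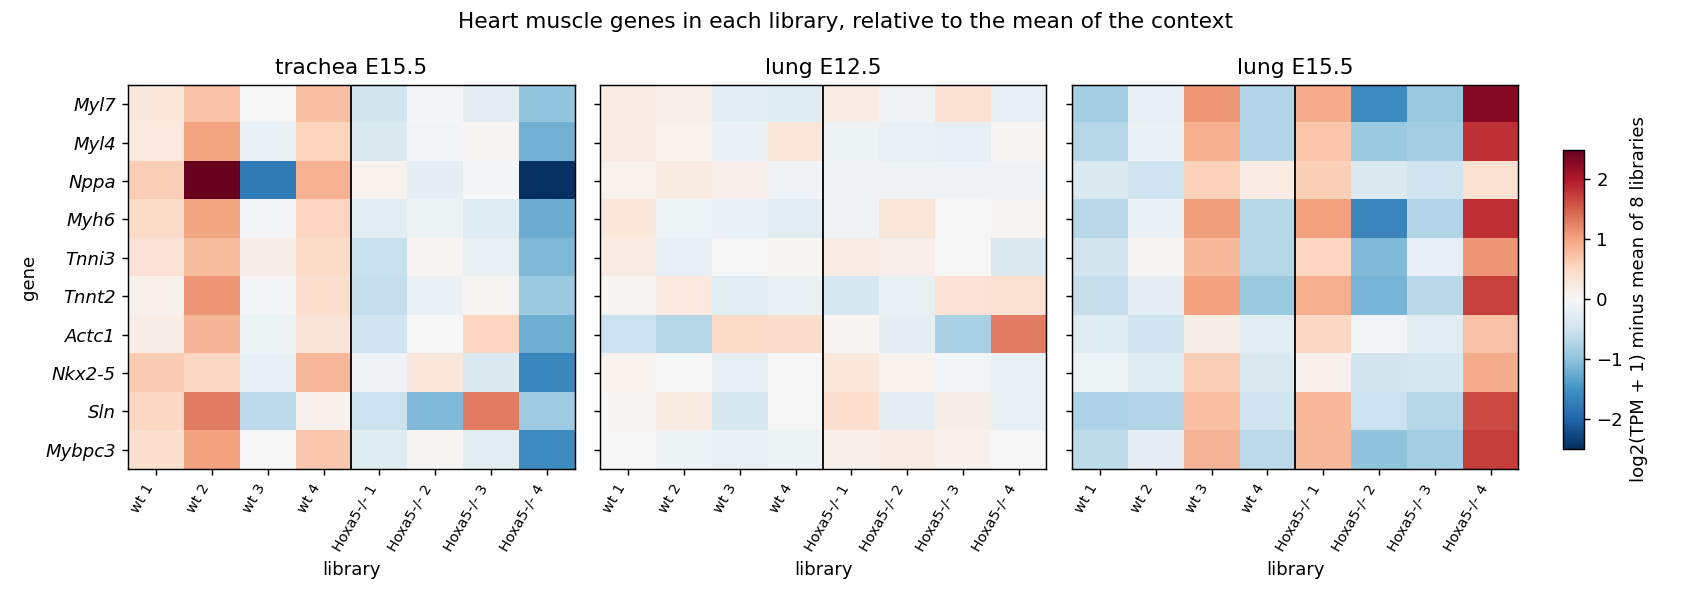
Level of each member in each trachea and lung library, as log2(TPM + 1) minus its mean over the 8 libraries of the context, red above and blue below that mean, with the colour scale cut at both ends. Columns tend to have 1 colour in trachea and in lung at E15.5, with trachea *Hoxa5*-/- replicate 4 lowest for 9 members and lung *Hoxa5*-/- replicate 4 at E15.5 highest for 9.

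Other gene lists in trachea held no called gene, and their part in the result was not tested. The 16 other heart muscle genes had 16 of 16 log2 fold changes below 0 (median -0.69, none called), with sums of 1347 to 2664 TPM in wt and 778 to 1829 TPM in mutants. The atrial or pulmonary vein genes had 8 of 9 below 0 (median -0.64, none called), with sums of 263 to 514 and 257 to 355 TPM. The epicardial or mesothelial genes, a list named for the outer lining of heart and lung, had 7 of 7 below 0 (median -0.86, none called). *Tcf21* of this list did not keep to the levels of *Msln*, with 235 against 9.36 TPM in wt lung at E15.5. Their sums were 243, 398, 296 and 191 TPM in wt and 164, 161, 232 and 174 TPM in mutants, led by *Msln*, *Tcf21* and *Upk3b*. *Sftpc*, a surfactant gene of the distal lung, was at 2.47 to 288 TPM in wt trachea and at 1.85 to 4.21 TPM in mutants. The epithelial list had 4 of 6 above 0 (median 0.09), and endothelial genes had 5 of 6 below 0 (median -0.06). Ventricular genes had 5 of 6 below 0 (median -0.67) and smooth muscle genes 6 of 7 (median -0.32). Cartilage genes had 5 of 5 above 0 (median 0.45). The skeletal muscle list had a median of 1.96 with 9 of 11 above 0, none called, and its sum was 5039 TPM in mutant replicate 3 against 171 to 1541 TPM in the other 7 libraries. Without that library all 10 members were below 0 with a median of -0.98. In bulk tissue, fewer cells of a type and less RNA per cell cannot be told apart.

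**Figure D3:**
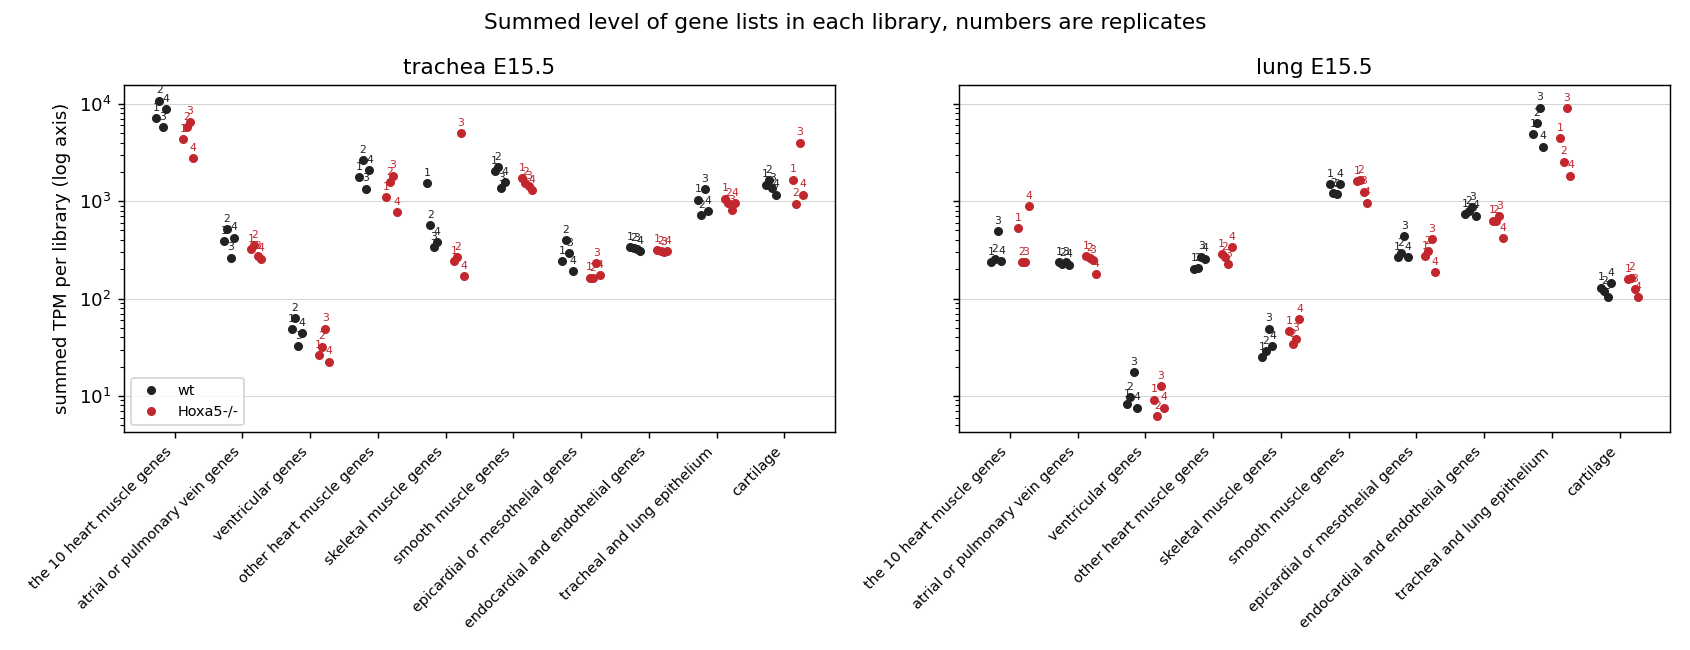
Summed TPM of the 10 heart muscle genes and of 9 lists of marker genes in each library of trachea and lung at E15.5, on a log axis, wt in black and *Hoxa5*-/- in red, each point numbered by replicate. In trachea the mutant library with 5039 TPM of skeletal muscle genes is replicate 3, and endothelial genes keep within 302 to 336 TPM.

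Lung held far less of these transcripts, and at E12.5 only some of them. *Myl7* was at 37.8, 36.4, 27.2 and 26.9 TPM in wt lung at E12.5 and at 38.3, 31.4, 43.5 and 28.7 TPM in *Hoxa5*-/- lung. *Tnni3* was at 3.70 to 5.92 TPM and *Actc1* at 7.88 to 37.3 TPM. In the same 8 libraries *Myh6* was at 0.103 to 0.633 TPM and *Mybpc3* at 0.0316 to 0.330 TPM, and *Nppa* had no read in 5 of them. *Myl7* therefore made up 82.2 to 88.4% of the summed TPM of the 6 heart-restricted members, and *Myh6* 0.316 to 1.66%. In trachea the same shares were 69.5 to 76.8% and 14.8 to 19.03%. At E15.5 the shares of *Myl7* (63.3 to 76.4%) and *Myh6* (14.8 to 19.1%) in lung overlapped those in trachea. The share of *Tnni3* did not in wt, at 8.27 to 11.7% in lung against 4.75 to 6.23% in trachea, and in mutant lung it was 4.90 to 14.8%. In lung at E15.5 the sum over the 6 genes was 36.4 to 486 TPM against 1575 to 5760 TPM. *Actc1* at E12.5 was highest in mutant replicate 4, which also held *Myog* at 10.3 TPM and *Myod1* at 5.49 TPM, where no other lung library of that stage exceeded 0.734 and 0.599 TPM.

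**Figure D4:**
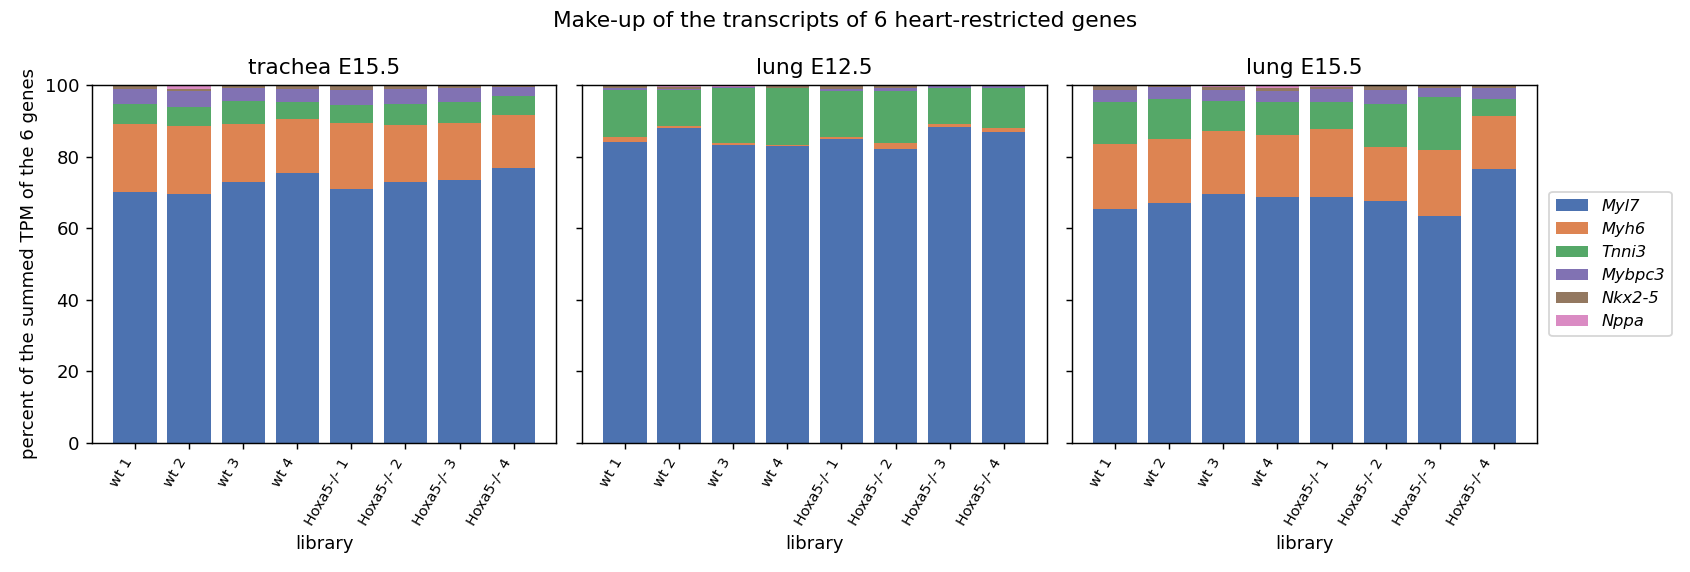
Share of each of the 6 heart-restricted members in their summed TPM, in percent, in each library of trachea at E15.5, lung at E12.5 and lung at E15.5. *Myh6* is close to absent from the bars of lung at E12.5 (0.316 to 1.66%) and takes 14.8 to 19.1% in the other 2 contexts.

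Between E12.5 and E15.5, 7 of the 8 members tested rose in wt lung, where 24.6% of all genes passed the test in either direction. *Nppa* and *Nkx2-5* were too low to be tested. *Myh6*, *Mybpc3* and *Sln* reached 1 TPM at E15.5 alone, so for them only a rise could be found. *Myh6* rose most, from 0.588, 0.238, 0.176 and 0.103 TPM to 11.5, 17.4, 41.0 and 11.4 TPM (log2 fold change 6.10, SE 0.59, edgeR adjusted p = 2.1e-05). All wt libraries at E15.5 lay above all at E12.5. *Mybpc3* rose from 0.0316 to 0.158 TPM to 2.05 to 7.66 TPM (5.37, SE 0.62), a fold that rests on 1 to 6 reads per library at E12.5. *Actc1* rose by 3.56 (SE 0.28), *Tnnt2* by 2.22 (SE 0.48) and *Myl4* by 1.59 (SE 0.38). *Myl7* and *Tnni3*, already present at E12.5, rose by 1.24 (SE 0.41, adjusted p = 0.0266) and 1.06 (SE 0.33), the latter with an adjusted p of 0.0205. *Sln* had a value of 1.58 (SE 0.88, adjusted p = 0.162) and was not called. The median of the 8 was 1.90, against -0.011 over all genes. The calls of *Myl7* and *Tnni3* were the least firm. That of *Myl7* was lost without wt replicate 3 or 4 of E12.5, and that of *Tnni3* without wt replicate 2 of E12.5. Without wt replicate 3 of E15.5, the highest library, the values were 0.62 for *Myl7* and 0.65 for *Tnni3*, both still called.

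Other lists changed with stage as well. In wt lung, *Csrp3*, *Casq2*, *Tnnc1* and *Ankrd1* of the other heart muscle genes passed the test upward among 14 tested, and *Hand2*, *Ryr2* and *Gata4* downward. *Hey2* and *Myh7*, the 2 ventricular genes tested, also passed upward. Wt means at E12.5 were 0.432 TPM for *Csrp3*, 0.619 for *Casq2*, 0.0954 for *Ankrd1* and 0.147 for *Myh7*. For these genes, which reached 1 TPM at E15.5 alone, only a rise could be found. *Hand2* had 0.520 TPM at E15.5, so for it only a fall could be found. Endothelial genes rose in 5 of 6 and smooth muscle genes in 5 of 7, so heart muscle genes were not the only ones to rise.

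In lung at E15.5, loss of *Hoxa5* was not followed by a called change in any member, and 22 of 17777 genes were called (0.124%). *Myl7* was at 41.7, 65.4, 162 and 45.2 TPM in wt and at 144, 24.6, 38.6 and 371 TPM in mutants. *Myh6* was at 11.5, 17.4, 41.0 and 11.4 TPM in wt and at 40.0, 5.48, 11.2 and 72.2 TPM in mutants. The mutant libraries thus enclosed the whole wt range of both genes. All 9 members tested had a log2 fold change above 0, with a median of 0.98 and adjusted p-values of 0.805 to 0.964 (edgeR). *Nkx2-5*, with a wt mean of 0.994 TPM, reached a mean of 1 TPM in mutants alone, so for it only a rise could be found. *Myl7* had 1.21 (SE 0.90), *Mybpc3* 1.07 (SE 0.85), *Actc1* 0.68 (SE 0.31) and *Nkx2-5* 0.40 (SE 0.76). One library decided this direction. Mutant replicate 4 was highest for 9 members. Without it *Nkx2-5* was no longer tested, and 6 of the 8 members still tested were below 0, with a median of -0.12 and *Myl7* at -0.21. The same library had the lowest sums of epithelial genes (1828 TPM against 2544 to 9110 TPM), endothelial genes (414 against 631 to 874 TPM) and mesothelial genes (186 against 267 to 435 TPM) of the 8. Summed over the 6 heart-restricted members, the highest mutant library exceeded the lowest 13.4-fold, and the highest wt library the lowest 3.67-fold.

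At E12.5, 5 members could be tested in lung, none was called, and 14 of 17548 genes were (0.0798%). *Myl7* had a log2 fold change of 0.16 (SE 0.19), *Actc1* 0.29 (SE 0.45), *Tnnt2* 0.14 (SE 0.33), *Tnni3* -0.0024 (SE 0.19) and *Myl4* -0.31 (SE 0.17), with adjusted p-values of 0.659 to 0.999. *Nppa*, *Myh6*, *Nkx2-5*, *Sln* and *Mybpc3* were below the limit of 1 TPM and were not tested. Of these, *Mybpc3* was at 0.0316 to 0.330 TPM over both genotypes, on 1 to 21 reads.

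**Figure D5:**
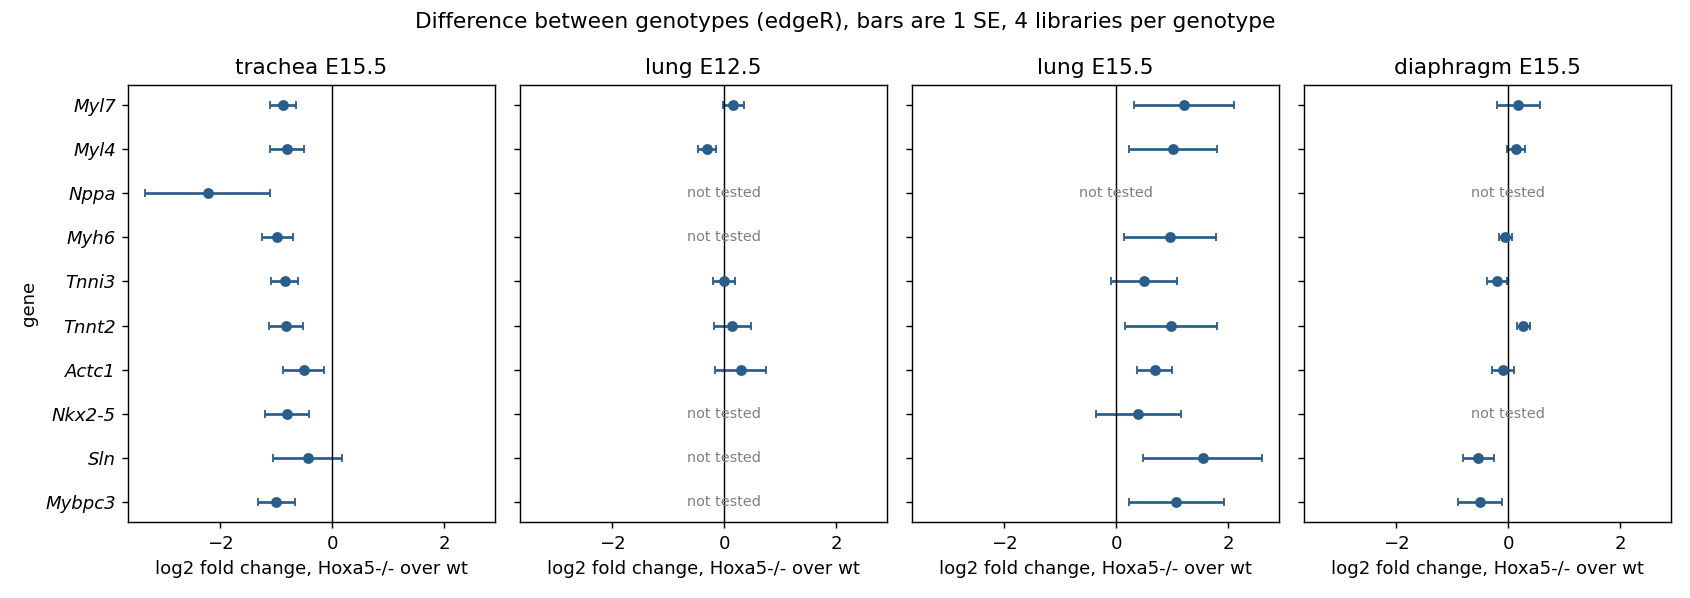
Log2 fold change of each member between *Hoxa5*-/- and wt libraries, with bars of 1 SE, in trachea, lung at both stages and diaphragm (edgeR, 4 libraries per genotype). All 10 points lie below 0 in trachea and all 9 tested lie above 0 in lung at E15.5, none being called, and members under 1 TPM in both genotypes are marked as not tested.

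The genotype effect was also compared between contexts. Trachea minus lung at E15.5 gave values below 0 for all 10 members, with a median of -1.87 and a range of -2.49 to -1.18, and none was called, as against 1 of 19907 genes (0.00502%). *Nppa* entered this fit through trachea alone, since in lung at E15.5 it had 0 to 1.12 TPM on 0 to 9 reads. *Nkx2-5* reached a mean of 1 TPM in lung at E15.5 in mutants alone. *Actc1* alone had an unadjusted p under 0.05 (value -1.21, SE 0.52, adjusted p = 0.962 by edgeR). In that comparison all 10 stayed below 0 without lung *Hoxa5*-/- replicate 4, with a median of -0.76. The difference between lung at E15.5 and at E12.5 had a median of 0.53 over 9 members, 8 of them above 0 and none called, where 0.0267% of genes were. Without the same library it turned to 3 above and 5 below 0, with a median of -0.21. *Myh6*, *Mybpc3*, *Sln* and *Nkx2-5* entered this comparison of stages through E15.5 alone, being under 1 TPM in both genotypes at E12.5. Their part in these counts and medians rests on low levels at E12.5.

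In diaphragm the most abundant members were those that skeletal muscle shares. *Actc1* ran from 8157 to 14182 TPM, *Myl4* from 480 to 734, *Sln* from 328 to 889 and *Tnnt2* from 266 to 418 TPM, beside *Myog* at 1270 to 1924 TPM. The heart-restricted *Tnni3* and *Mybpc3* stayed at 2.56 to 4.01 and 1.497 to 5.67 TPM. Against wt lung of the same stage, 5 members were higher in wt diaphragm and 1 was lower, where 36.4% of genes were called. The higher ones were *Sln* (log2 fold change 9.77, SE 0.57), *Actc1* (6.41, SE 0.24), *Myl4* (6.22, SE 0.45), *Tnnt2* (6.03, SE 0.51) and *Myh6* (2.05, SE 0.39), and the lower one was *Tnni3* (-1.41, SE 0.36, edgeR adjusted p = 0.00795). *Myl7* (-0.99, SE 0.53) and *Mybpc3* (0.54, SE 0.44) were not called, although *Mybpc3* was (1.16) once wt lung replicate 3 was left out. No member was called between genotypes in diaphragm, where 0.594% of genes were. *Tnnt2* had the lowest unadjusted p (log2 fold change 0.27, SE 0.11, adjusted p = 0.370), and the median of the 8 was -0.08. In the same fit *Myh11* (-4.34, SE 0.46) and *Cnn1* (-3.30, SE 0.43), contractile genes of smooth muscle, fell. Their regulator *Myocd* (-2.73) and the mesothelial *Tcf21* (-3.55) also fell, and *Ankrd1* rose (0.85). Epithelial genes had 6 of 6 below 0 in this fit (median -3.94, none called). Their sums were 6.46 to 499 TPM in wt and 3.88 to 18.53 TPM in mutants. *Sftpc* of this list had a mean of 83.3 TPM in wt diaphragm. Its part in the falls of *Myh11*, *Cnn1*, *Myocd* and *Tcf21*, and that of the whole list, was not tested.

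In somites the 4 members that skeletal muscle shares all rose with stage. From E10.5 to E12.5, 6 of 8 members tested rose in wt somites, where 42.6% of genes were called. *Actc1* rose from 214 to 349 TPM to 1858 to 2513 TPM (log2 fold change 2.91, SE 0.13), *Sln* by 4.63 (SE 0.27), *Myl4* by 3.18 (SE 0.19), *Tnnt2* by 2.58 (SE 0.14) and *Myh6* by 2.26 (SE 0.14). *Nkx2-5* was also called, at 0, 0, 0.237 and 0 TPM at E10.5 and 4.16, 4.71, 1.15 and 0.953 TPM at E12.5, and its fold has no firm size because 3 libraries at E10.5 had no read. It reached 1 TPM at E12.5 alone, so only a rise could be found. *Tnni3* (0.02, SE 0.21) and *Myl7* (-0.55, SE 0.61) were not called. The skeletal muscle list summed to 258 to 444 TPM in wt at E10.5 and 3160 to 4874 TPM at E12.5. Between genotypes no member was called in somites at E10.5 (7 tested, 0.0215% of genes called) or at E12.5 (8 tested, 0.00529% of genes called), with medians of 0.15 and 0.08.

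In iBAT 5 members were tested and none was called, where 0.00657% of genes were. In the 6 contexts other than trachea DESeq2 called no member between genotypes either. By edgeR *Tnnt2* in diaphragm was the only member there with an unadjusted p under 0.05, and DESeq2 gave *Myh6* in iBAT an unadjusted p of 0.0384. All 5 were below 0, between -0.75 for *Actc1* and *Myh6* and -0.60 for *Sln* and *Myl4*, with a median of -0.64 and adjusted p-values of 0.9999 (edgeR). *Myh6* reached a mean of 1 TPM in wt alone (1.12 TPM), so for it only a fall could be found. *Actc1* was at 199, 78.5, 50.1, 49.0 and 60.7 TPM in wt and at 54.4, 97.0, 46.2, 35.0 and 21.1 TPM in mutants. Replicate 1 of wt was the highest of the 10 libraries for each of these 5 members and also had the highest *Myog* (10.9 TPM) and *Acta1* (887 TPM). Without it *Myh6* was no longer tested, and the other 4 members were all below 0, with a median of -0.23. The skeletal muscle list had 11 of 11 below 0 in iBAT (median -0.70, none called), and its part in the result was not tested.

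The genes whose level most closely followed that of the members were mostly muscle genes. Likeness was Pearson's r with the mean of the 10 members over the 24 libraries of trachea and lung, after the mean of each group had been taken out of log2(TPM + 1), and 18145 genes were ranked. The points share libraries, so r is given as a description. The 10 likest genes were *Cox6a2* (r = 0.966), *Csrp3* (0.965), *Trim63* (0.950), *Fsd2* (0.943), *Xirp1* (0.935), *Hspb7* (0.933), *Kcnj5* (0.926), *Tnni1* (0.923), *Trim55* (0.919) and *Aldh1b1* (0.912). *Cox6a2* is the subunit of cytochrome oxidase found in striated muscle, *Csrp3* and *Xirp1* are proteins of the Z-disc and the intercalated disc, *Trim63* and *Trim55* are ligases of the sarcomere, *Tnni1* is slow troponin I, and *Kcnj5* is a potassium channel subunit of atrial muscle. *Kcnj5* had 33.8 TPM in wt trachea and 0.201 TPM in wt diaphragm, whereas *Cox6a2* had 142 and 338 TPM. Over the 8 trachea libraries alone 3 of these 10 genes remained among the likest, and with log2(TPM + 0.1) 6 did. Among the members r ran from 0.587 for *Actc1* and 0.703 for *Nppa* to 0.975 for *Mybpc3* and 0.978 for *Myl4*. Genes of the atrial list did not share 1 pattern, with *Shox2* at 0.899 and *Kcnj3* at 0.816 but *Hcn4* at 0.294, *Gja5* at 0.185, *Kcna5* at -0.036, *Stard10* at -0.156 and *Tbx5* at -0.200. The 6 epithelial genes lay between -0.521 for *Nkx2-1* and -0.285 for *Sox2*.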

How the data were processed

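PolyA RNA of trachea, lung, diaphragm, somites and iBAT was sequenced in 57 libraries. According to the methods, the authors used Trim Galore 0.6.5 for trimming, aligned them to GRCm39 with STAR 2.7.9a and counted them per gene with featureCounts 2.0.3 on an annotation curated for Hox genes. They deposited raw counts per gene and TPM. Trachea, lung and diaphragm (32 libraries) were sequenced with single reads, and somites and iBAT (25 libraries) with paired reads at another centre. The study describes the libraries of a group as biological replicates, and those of wt as tissues of separate embryos.

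Groups were taken from the labels. Gene names of the tables were matched after unifying separators, which concerned 2573 names. Counts were tested across all genes whose mean reached 1 TPM in 1 or both groups, using the quasi-likelihood test of edgeR 4.0.16 with TMM scaling in R 4.3.3 and Benjamini-Hochberg adjustment, separately for each of 12 comparisons. A call needed an adjusted p under 0.05 and, other than for differences of effects, a fold change of at least 1.5. Alternatives were DESeq2 1.42.0 (the test the study used), the size factors of DESeq2, other filters, 1 fit for the table, a replicate block and leaving out each library. Levels, shares and likeness were computed from the deposited TPM with Python 3.11.15, numpy 2.4.6 and pandas 2.3.3, with a pseudocount of 1 on the log2 scale. Total counts of 18369905 to 72991481 per library set the precision of low values. Promoter sequences were read from the GRCm39 genome before the start of the Ensembl canonical transcript in the deposited annotation, found for all 10 members.

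The members and the 9 lists of marker genes were chosen with earlier results of these data known. Named genes were the members, *Hoxa5*, the counterparts *Acta1*, *Myh7* and *Myl2*, up to 3 genes of each list with the highest mean in wt trachea, list genes that passed a test, and the 10 genes most like the members. *Irx4* and *Bmp10* were added after their values had been seen.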

Additional observations from a re-analysis of the deposited data

Results flagged for a closer look

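Of 123 groups of 4 or 5 libraries in which a member varied, 11 had 1 library far from the others by Dixon's criterion. Its nominal rate of about 0.05 per group holds for independent normal values. Here the members rose and fell together, and a single library with reads among others at 0 always meets the criterion. The count of 11 is therefore a description, with no chance rate to be set against. In iBAT, wt replicate 1 stood above the other wt libraries for *Actc1* (199 against 49.0 to 78.5 TPM), *Myl4* (15.3 against 5.54 to 6.97 TPM) and *Tnnt2* (3.49 against 0.962 to 1.56 TPM). *Mybpc3* in iBAT was highest in wt replicate 3, at 0.119 TPM against at most 0.0334 TPM. In diaphragm, *Hoxa5*-/- replicate 3 was lowest for *Myl4* (490 against 705 to 734 TPM) and *Myh6* (51.0 against 69.5 to 72.1 TPM). *Sln* stood out in trachea *Hoxa5*-/- replicate 3 (143 against 26.2 to 39.1 TPM), the library with skeletal muscle transcripts. In lung at E15.5 it stood out in wt replicate 3 (2.81 against 0.319 to 0.589 TPM). Single reads set the remaining values, with *Nppa* in diaphragm at 0.141 TPM in wt replicate 2 and 0.0941 TPM in *Hoxa5*-/- replicate 4, each against 0 in the others. *Nkx2-5* in somites at E10.5 was at 0.237 TPM on 3 reads in wt replicate 3 against 0.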

How the results depend on the processing

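DESeq2 called 2 members between genotypes in trachea, *Myl7* and *Myh6*, where edgeR called none. The share of all genes that DESeq2 called there is not given here, so the 2 calls cannot be set against it. Values close to 0 changed sign under single settings. With a minimum of 10 counts, *Tnni3* was 0.00048 between genotypes in lung at E12.5 and -0.0080 between wt somite stages. *Myh6* between genotypes in somites at E12.5 was -0.00057 with DESeq2 and -5.02e-05 with its size factors. *Myl7* between wt lung stages lost its call in 1 fit for the table (1.21). Testing without a filter on low values and calling without a fold limit changed no call.

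Replicate numbers were not taken to pair the libraries, since in no comparison did every pair of same-numbered libraries correlate above 0.1. In iBAT the sample names also share leading numbers across genotypes, whose meaning is not given in the sources used here, and same-numbered libraries correlated at 0.073 to 0.189. With the leading number as a block no member was called in iBAT and all 5 tested stayed below 0. With the replicate number as a block, no member was called between genotypes, *Myl7* between wt lung stages lost its call (1.03), *Myl4* in somites at E10.5 turned to 0.049 and *Nkx2-5* in the difference between lung stages to -0.13.

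The ratio of the highest to the lowest library in the summed TPM of the heart-restricted members moved when all 10 members were summed. It was then 1.08 in wt lung at E12.5, 2.07 and 3.74 in wt and mutant lung at E15.5, 1.58 in mutant diaphragm, 1.18 in mutant somites at E12.5 and 3.83 and 3.38 in wt and mutant iBAT. With CPM it was 1.25 and 1.43 in wt and mutant diaphragm and 1.12 in wt somites at E10.5.

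Leaving out each library in turn called 0 members in every comparison of genotypes, 6 to 8 between wt lung stages, 6 to 6 between wt somite stages and 6 to 7 between wt diaphragm and lung. Between genotypes, log2 fold changes ran from -0.13 to 0.12 for *Tnni3*, -0.080 to 0.36 for *Tnnt2* and -0.28 to 0.56 for *Actc1* in lung at E12.5. In lung at E15.5 they ran from -0.21 to 1.84 for *Myl7*, -0.17 to 1.57 for *Myl4*, -0.13 to 1.56 for *Myh6*, -0.19 to 0.93 for *Tnni3*, -0.087 to 1.68 for *Tnnt2* and -0.11 to 1.69 for *Mybpc3*. In diaphragm they ran from -0.078 to 0.59 for *Myl7*, -0.11 to 0.059 for *Myh6* and -0.21 to 0.031 for *Actc1*. In somites at E10.5 they ran from -0.18 to 0.15 for *Myl4*, -0.33 to 0.23 for *Myh6* and -0.0023 to 0.48 for *Sln*, and at E12.5 from -0.034 to 0.21 for *Myl4*, -0.081 to 0.14 for *Myh6* and -0.23 to 0.093 for *Tnni3*. Between wt stages the ranges were 0.62 to 1.46 for *Myl7* and 0.65 to 1.26 for *Tnni3* in lung, and -1.17 to 0.30 and -0.16 to 0.14 in somites. *Mybpc3* in wt diaphragm against lung ran from 0.34 to 1.16. The difference between lung stages ran from -0.37 to 1.66 for *Myl7*, -0.56 to 1.12 for *Myh6*, -0.18 to 0.92 for *Tnni3*, -0.23 to 1.52 for *Tnnt2*, -0.14 to 0.70 for *Nkx2-5* and -1.72 to 0.072 for *Mybpc3*.

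The ratio of summed TPM ran, in wt and mutants, from 1.40 to 1.76 and 1.30 to 2.01 in trachea, 1.27 to 1.38 and 1.29 to 1.49 in lung at E12.5, and 1.53 to 3.67 and 5.76 to 13.4 in lung at E15.5. It ran from 1.30 to 1.59 and 1.08 to 1.26 in diaphragm, 1.17 to 1.65 and 1.13 to 1.61 in somites at E10.5, 1.36 to 1.57 and 1.11 to 1.49 in somites at E12.5, and 1.85 to 2.96 and 1.62 to 2.29 in iBAT. The causes of these shifts were not tested. Members under 1 TPM in both groups were not tested and rest on few reads.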
